A study of Salmo salar with 12 samples.

Results

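The comparison described here sets T4 against T1 in the methylomes of pituitary, ovary and liver of female Atlantic salmon, over the 3 tissues jointly. All 12 libraries of the series belong to it, 6 at T4 and 6 at T1. The fish were broodstock females that had been reared together in tanks. T4 is the last of the samplings made once day length had been extended, a treatment used to bring on sexual maturation. T1 is the sampling made before day length was changed. Each tissue contributed 2 libraries at T4 and 2 at T1. No fish was sampled at both time points, so a difference between the time points and a difference between individual fish cannot be told apart by design. Differences in DNA sequence between the fish were not examined. The DNA came from whole tissue, and a change in the mix of cell types cannot be told apart from a change of methylation within cells.

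In vertebrates most CpG sites carry a methyl group on the cytosine, put there by the DNA methyltransferases and copied when DNA is replicated. CpG-dense promoters and active regulatory elements are the usual exceptions, with low levels. Pituitary, ovary and liver work together at the onset of maturation. The pituitary releases the gonadotropins, the ovary answers with steroids and growing follicles, and the liver makes yolk precursor proteins under the control of oestrogen.

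The measured unit was a 1 kb tile of the genome assembly ICSASG_v2 with at least 3 cytosines listed in all 12 libraries, and 495114 tiles met this rule of the 836231 that held any common cytosine. A tile's level in a library was the share of its reads that were methylated, in percent. Its value was the mean of the pituitary, ovary and liver differences, T4 minus T1, in percentage points (points). The libraries held between 159785200 and 224866844 reads over their listed cytosines, and the median tile had between 106 and 132 reads in a library. At 106 independent reads and a level of 80% the binomial standard error of one library's level was 3.89 points. It covers counting error only. Reads were counted at each cytosine and added up, so a read that spans several cytosines counted several times. The counting error is then larger. The pituitary T1 replicate 1 library listed no cytosine with over 150 reads, unlike the other 11. Mean levels over tiles were 79.3 and 78.9% in T4 pituitary, 77.9 and 78.7% in T4 ovary and 81.7 and 81.7% in T4 liver, against 79.5 and 79.8%, 77.8 and 77.4%, and 81.9 and 81.8% in the same tissues at T1, with replicate 1 given before replicate 2 here and below. The 3 tissues did not overlap in these means. The files hold no expression values, so the tissue labels were not checked against marker genes.

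The tissues partly shared fish. The titles give 3 fish codes at T4 (T4F2, T4F3 and T4F4) and 3 at T1 (T1F1, T1F3 and T1F4), each over between 1 and 3 libraries. The codes were checked on tiles whose replicates at a time point differed by at least 40 points in at least 1 tissue, 1044 tiles at T4 and 1123 at T1, without use of any difference between the time points. Of the 24 pairs of libraries from different tissues at the same time point, 8 differed by between 10.6 and 12.7 points on average, and the other 16 differed by between 28.7 and 34.1 points. Pairs of the first kind are called matched here.

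The matched pairs went against the titles in 6 pairs. In 3 pairs with the same code in the titles the libraries did not match, at between 31.6 and 32.6 points. These were pituitary T1 replicate 1 with ovary T1 replicate 2, ovary T1 replicate 2 with liver T1 replicate 1, and ovary T4 replicate 1 with liver T4 replicate 1. In 3 pairs with different codes they did match, at between 11.7 and 12.3 points. These were pituitary T4 replicate 1 with ovary T4 replicate 1, pituitary T1 replicate 1 with ovary T1 replicate 1, and ovary T1 replicate 1 with liver T1 replicate 1. Either way the libraries fall into 6 fish, 3 at T4 and 3 at T1. In the 4 of these 6 pairs that involve an ovary T1 library, the fish codes in the file names, which swap the 2 ovary T1 libraries, fell on the side of the matching. The 2 pairs at T4 went against the titles and the file names alike. By matching, liver T4 replicate 1 and ovary T1 replicate 2 each stood alone as the only library of a fish. Results are given below with all 12 libraries and, where the fish matter, with 1 value per matched fish. That second test was added after the data were seen. For single tiles it weighted each fish by its number of libraries, so a fish with only 1 library counted least.

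**Figure D1:**
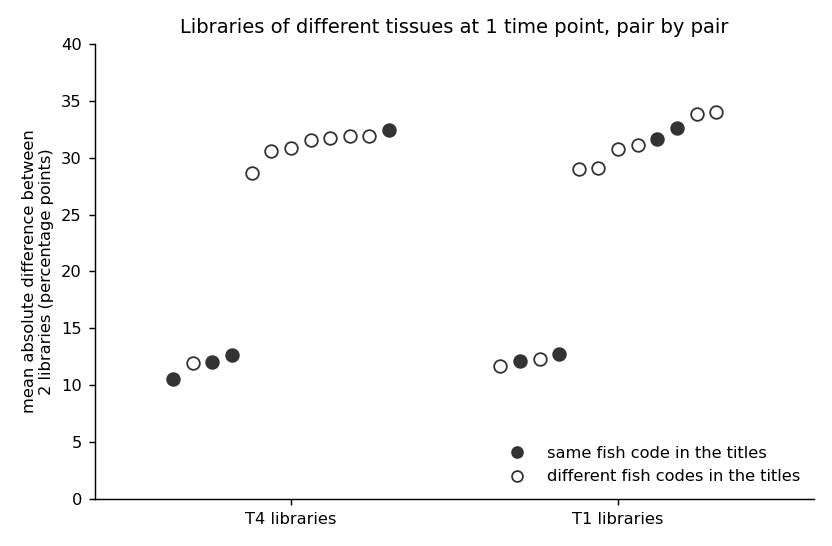
Mean absolute level difference, in percentage points, between 2 libraries of different tissues at the same time point, over tiles that varied between replicates. Each circle is a pair, filled where the titles give both libraries the same fish code. The 8 matched pairs lie between 10.6 and 12.7 points, and 3 filled circles lie among the 16 pairs above 28.7 points.

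Taken over all tiles, the methylation level differed between T4 and T1 by less than the spread of the libraries. The mean value was -0.00425 points (exact two-sided permutation test within tissue, 216 arrangements, p = 0.991). The smallest p this test allows is 0.00926, with libraries taken as independent although tissues share fish. The sign was not the same in the 3 tissues, which was not tested. The T4 minus T1 difference of the mean level was -0.541 points in pituitary, 0.648 points in ovary and -0.119 points in liver. Replicates of a group could lie as far apart as this, as the T4 ovary libraries did at 77.9 and 78.7%. With 1 value per title code the mean value was -0.0215 points (exact permutation test, p = 1, 3 codes against 3). With 1 value per matched fish it was 0.0677 points (exact permutation test, p = 0.9). With 3 codes or fish against 3 no p below 0.1 is possible.

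No difference was detected in any class of level. Tiles with a mean level over all libraries under 20% (11266 tiles) averaged 6.31% at T4 and 6.25% at T1. Tiles between 20 and 80% (149690 tiles) averaged 66.8% at T4 and 66.5% at T1. Tiles of 80% or more (334158 tiles) averaged 87.9% at T4 and 88.1% at T1. Over these classes and the 3 classes by number of cytosines, all 6 adjusted p-values of the exact permutation test within tissue were 0.963. That test also takes the libraries as independent. Ovary differed from the other tissues in sign in the middle class, with a difference of 2.29 points, against -0.889 points in pituitary and -0.521 points in liver, and this contrast was not tested.

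Single tiles differed far more than the mean. The values had an SD of 3.69 points, and their 1st and 99th percentiles were -9.66 and 10.004 points. Past 20 points, 678 tiles were higher and 733 were lower at T4. Past 50 points there were 21 higher and 24 lower tiles. In the edgeR quasi-likelihood test with Benjamini-Hochberg adjustment, 2399 tiles had an adjusted p under 0.05, or 0.485% of those tested. Of these, 1158 (0.234%) rose and 1241 (0.251%) fell at T4. limma, run on the log2 ratio of methylated over unmethylated reads, called 517 tiles (0.104%), of which 507 were also called by edgeR.

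**Figure D2:**
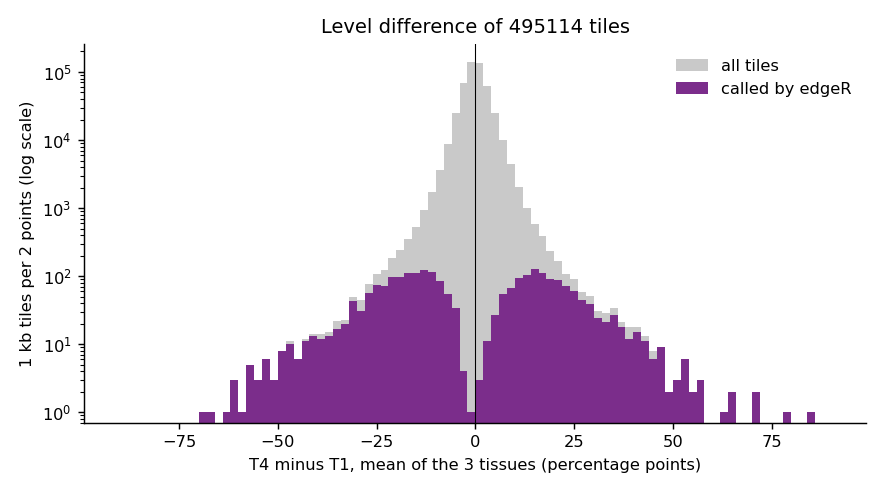
Number of 1 kb tiles (log scale) by T4 minus T1 difference, mean of the 3 tissues, in percentage points, in bins of 2 points. Grey bars are all 495114 tiles and purple bars are the 2399 tiles called by edgeR, which lie on both sides of 0 in near-equal number (1158 higher, 1241 lower).

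The called tiles had a median absolute value of 17.7 points, with 5th and 95th percentiles of 6.75 and 40.9 points. In the higher tiles the median level was 80.5% at T4 and 58.4% at T1. In the lower tiles it was 62.0% at T4 and 82.7% at T1. The median differences were of like size in the tissues. They were 17.4, 18.6 and 15.9 points in pituitary, ovary and liver for the higher tiles, and -18.1, -16.9 and -16.2 points for the lower tiles. The difference had the same sign in all 3 tissues in 2375 of the 2399 called tiles, against 27.9% of all tiles. The contrast is the mean over tissues, so it favours tiles with a common sign. Changes across most of the scale were few. 15 called tiles averaged over 60% at T4 and under 20% at T1, and 13 averaged under 20% at T4 and over 60% at T1.

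Calls were unevenly spread over the level classes. They made up 1.65% of tiles with a mean level under 20%, 1.02% of tiles between 20 and 80%, and 0.205% of tiles at 80% or more. By number of cytosines the shares were 0.468% of tiles with 3 to 9, 0.562% with 10 to 19 and 0.787% with 20 or more. These shares were not tested against each other.

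All 6 T4 libraries lay on one side of all 6 T1 libraries in 2145 tiles (0.433% of all tiles). In 941 (0.19%) the T4 libraries were the higher and in 1204 (0.243%) the lower. Among the called tiles 1072 (44.7%) were separated in this way. Of the 45 tiles past 50 points, 36 were. Separation rests on the same levels as the calls and the values, so both favour separated tiles.

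The count of calls rested on some libraries more than on others. Leaving out liver T4 replicate 2 left 1403 calls, leaving out ovary T4 replicate 2 left 1596, and leaving out all 3 libraries of fish T4F4 left 1039. Without any 1 of the other 10 libraries there were between 1697 and 2376 calls. Leaving out title code T1F3 left 1628 calls, and leaving out T1F4 gave 2774, more than with all 12 libraries. With 1 value per title code, limma called 368 tiles (0.0743%), although T1F3 and T4F3 each held libraries that did not match. With 1 value per matched fish it called 117 tiles (0.0236%). All 117 were also called by edgeR, which makes them 4.88% of the edgeR calls, and 113 of them were separated between the 6 T4 and the 6 T1 libraries. Both tests use the same reads, and calls favour separated tiles, so neither count is independent support.

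**Figure D3:**
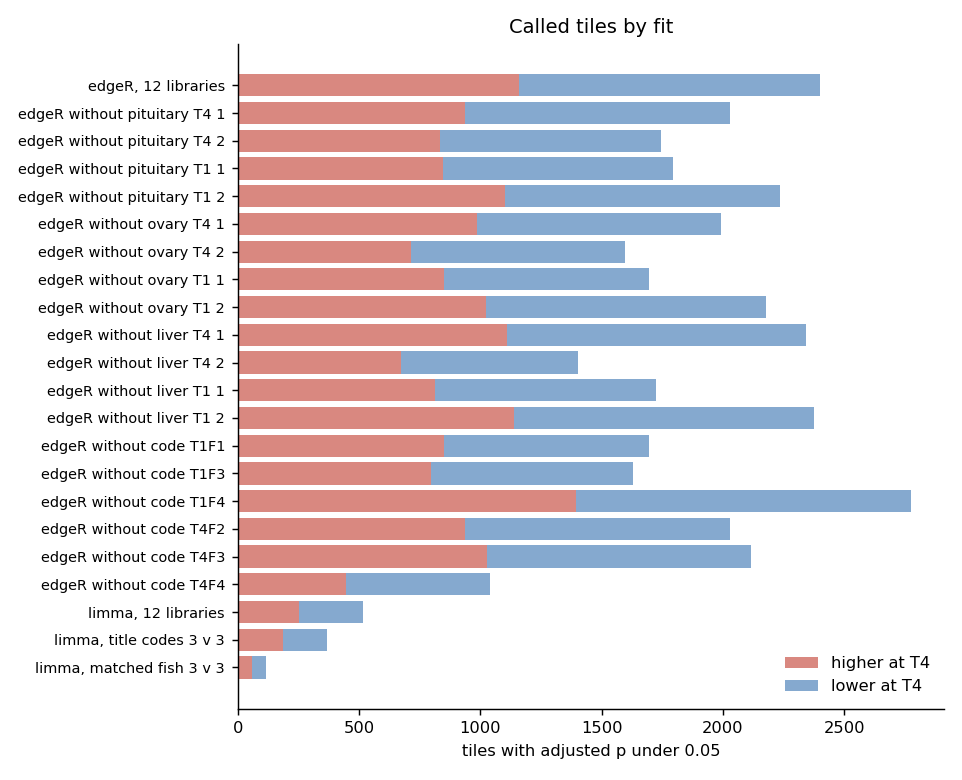
Number of tiles with an adjusted p under 0.05 in each fit, split into tiles higher at T4 (red) and lower at T4 (blue). The top bar is edgeR on all 12 libraries with 2399 tiles, the next bars leave out 1 library or all libraries of 1 title code, and the last 3 bars are limma on 12 libraries (517), on title codes (368) and on matched fish (117).

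Fish of the same time point also differed from each other by large amounts. The difference between fish was measured on 1 library against 1 in the mean of 2 tissues. T4 replicate 2 minus T1 replicate 1, in pituitary and liver, was past 30 points in 1386 tiles. T4 replicate 2 minus T1 replicate 2 was past 30 points in 1352 tiles. Within a time point, replicate 1 minus replicate 2 was past 30 points in 865 tiles at T4 (pituitary and ovary) and in 1062 tiles at T1 (pituitary and liver). Both comparisons across time points rest on the same T4 fish, T4 replicate 2. The T4 comparison within a time point used ovary in place of liver. The counts are therefore not independent or fully alike, and they were not tested against each other. With both replicates and all 3 tissues averaged, 403 tiles were past 30 points.

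Over the 403 tiles, levels covered the whole scale. Over the 6 libraries of the time point with the lower mean, 34.3% of levels were under 15%, 32.6% lay between 35 and 65%, and 2.94% were over 75%. Over the 6 libraries of the other time point, 2.56% were under 15%, 30.6% lay between 35 and 65%, and 48.3% were over 75%. Over all 12 libraries, 18.4% of levels in these tiles were under 15%, 31.6% lay between 35 and 65% and 25.6% were over 75%, against 1.46, 28.1 and 39.1% in all tiles with a mean level of 20 to 80%. The middle of the scale was thus filled about as often as in those tiles, and its lower end more often. The 2 sides of this split were set by the value itself, so they describe the tiles and test nothing.

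The 10 largest positive values among the called and separated tiles ran from 54.3 to 85.1 points. The largest was at ssa15:43647001-43648000, with 5 cytosines. It measured 90.3 and 93.9% in T4 pituitary, 95.5 and 86.5% in T4 ovary and 56.7 and 90.2% in T4 liver, against 2.5% in liver T1 replicate 1 and no methylated read in the other 5 T1 libraries. Those 5 had between 62 and 98 reads, which allows levels of up to between 3.06 and 4.84% (3 reads). Here and below, such limits take the reads of different cytosines as independent, and are too low where a read spans several. The tile thus read as mostly methylated in every T4 library and as nearly free of methylation in every T1 library. The value was 85.1 ± 5.83 points (edgeR adjusted p = 1.35e-08), and all 5 cytosines lay on the same side. The ± is the SE from the replicate spread, 2 libraries per group. Here and below, this SE and the edgeR p take the libraries as independent, although tissues share fish. Which of the tiles named by value were called with 1 value per matched fish is given after the last of them.

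The next tile, ssa17:48236001-48237000, lies upstream of LOC106576403, which codes for a ras association domain-containing protein 8-like, a member of a family that binds Ras-type small GTPases. It measured 93.9 and 90.9% in T4 pituitary, 90.3 and 90.1% in T4 ovary and 47.0 and 95.5% in T4 liver. At T1 it measured 6.67 and 6.19% in pituitary, 10.5 and 6.36% in ovary and 0 (up to 2.098% at 143 reads) and 3.57% in liver. As in the first tile, liver T4 replicate 1 was intermediate and the other T4 libraries were at or above 90.1%. The value was 79.1 ± 8.16 points (edgeR adjusted p = 7.4e-08).

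Gene names beside tiles come from a list of 2063 gene intervals on ICSASG_v2 that covers only genes near regions called in the study. A tile without a name may therefore still lie in a gene, and the number of tiles with a name means nothing in itself. A gene is named where the tile overlaps it or lies within 5 kb of it.

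The third tile, ssa12:76503001-76504000, overlaps LOC106565991, a tumor necrosis factor receptor superfamily member 10C-like gene. In humans the receptor of this name binds the death ligand TRAIL without passing on its signal. All 17 cytosines were higher at T4. It measured 76.5 and 78.2% in T4 pituitary, 84.8 and 86.1% in T4 ovary and 89.4 and 88.3% in T4 liver, against 0.943 and 4.08%, 0.758 and 62.4%, and 0.350 and 3.31% in the same tissues at T1. Ovary T1 replicate 2, at 62.4%, stood apart from the other T1 libraries. The value was 71.9 ± 10.3 points (edgeR adjusted p = 4.33e-06, limma on matched fish 0.134).

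The fourth tile, ssa17:7078001-7079000, lies downstream of LOC106575217, an NGFI-A-binding protein 1-like gene, whose mammalian counterpart represses the EGR transcription factors. NGFI-A is itself a member of that family, which in mammals takes part in gonadotropin gene control. The tile measured between 54.1 and 91.2% at T4 and between 1.27 and 47.7% at T1. The lowest T4 level was liver T4 replicate 1 and the highest T1 level was ovary T1 replicate 2, and the groups did not overlap. Its value was 71.3 ± 9.80 points (edgeR adjusted p = 5.48e-06, limma on matched fish 0.076).

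Among the remaining 6 higher tiles, ssa05:70613001-70614000 overlaps LOC106605839, an ephrin type-B receptor 5-like gene of the receptor tyrosine kinases for membrane-bound ephrins. It measured 54.3 and 76.9% in T4 pituitary, 53.7 and 77.0% in T4 ovary and 93.3 and 82.3% in T4 liver, against 15.1 and 6.14%, 15.2 and 10.3%, and 27.3 and 22.0% at T1. Its value was 56.9 ± 6.03 points (edgeR adjusted p = 8.7e-07). The T4 replicates 1 and 2 differed alike in pituitary and ovary, the tissues in which they matched.

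The tile ssa22:38120001-38121000 overlaps LOC106583532, a potassium voltage-gated channel subfamily B member 1-like gene, which codes for a delayed rectifier channel of excitable cells. It measured 73.4 and 53.2% in T4 pituitary, 80.7 and 53.2% in T4 ovary and 83.3 and 59.8% in T4 liver. At T1 it measured 2.80 and 11.1% in pituitary, 0.847 and 49.6% in ovary and 4.76 and 8.92% in liver. In each tissue T4 replicate 2, which is 1 fish, was the lower T4 library. Its value was 54.3 ± 10.8 points (edgeR adjusted p = 0.000389).

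The other 4 higher tiles had no named gene. They were ssa12:49463001-49464000 (65.2 ± 14.4 points), ssa02:14592001-14593000 (64.1 ± 11.8 points), ssa17:9481001-9482000 (58.0 ± 12.8 points) and ssa09:114545001-114546000 (57.5 ± 8.77 points). In the first of them T4 replicate 1 measured 86.3, 92.3 and 93.9% in pituitary, ovary and liver, while T4 replicate 2 measured 45.5, 43.9 and 35.6%. The T1 libraries there reached at most 3.61%. The split between the T4 replicates was thus the same in the 3 tissues. By matching, T4 replicate 1 of liver was another fish than T4 replicate 1 of pituitary and ovary.

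**Figure D4:**
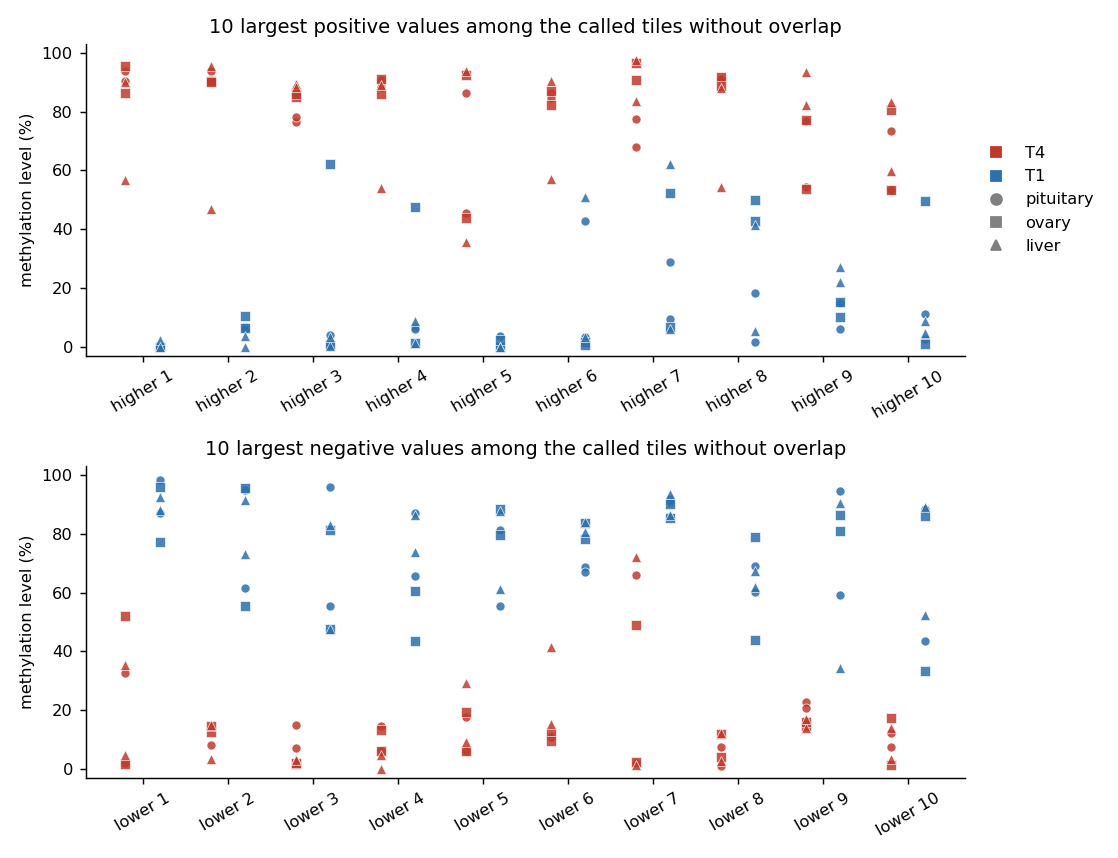
Methylation level, in percent, of the 10 tiles with the largest positive (top) and the 10 with the largest negative values (bottom) among the called tiles whose 6 T4 and 6 T1 libraries do not overlap. Each point is a library, red for T4 (left) and blue for T1 (right), with the symbol giving the tissue. The leftmost tile of the top row is the one at 85.1 points, where 5 of the 6 T4 libraries lie at or above 86.5% and liver T4 replicate 1 lies at 56.7%.

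The 10 largest negative values ran from -68.2 to -56.2 points. The largest, at ssa11:75539001-75540000, had 3 cytosines and no named gene. It measured 32.8 and 2% in T4 pituitary, 52.2 and 1.89% in T4 ovary and 35.6 and 4.84% in T4 liver, against 87.0 and 98.1%, 77.1 and 95.8%, and 88.2 and 92.5% in the same tissues at T1. T4 replicate 2, the fish shared by the 3 tissues, was nearly free of methylation, and the T4 replicate 1 libraries, not all of the same fish, were intermediate. The value was -68.2 ± 11.7 points (edgeR adjusted p = 0.000302, limma on matched fish 0.189).

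The tile ssa27:10595001-10596000 lies downstream of LOC106588385, a histone H3-like centromeric protein A gene, whose product replaces H3 at centromeres. It measured 14.04 and 8.11% in T4 pituitary, 12.7 and 14.8% in T4 ovary and 3.57 and 15% in T4 liver, against 94.7 and 61.5%, 95.4 and 55.4%, and 91.3 and 73.0% at T1. T1 replicate 2 was the lower T1 library in every tissue. Its value was -67.2 ± 9.44 points (edgeR adjusted p = 4.91e-05).

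The same order of the T1 replicates held at ssa02:26500001-26501000, downstream of LOC106584540, a tetraspanin-13-like gene for a membrane protein. It measured between 1.67 and 14.9% at T4. T1 replicate 1 measured 95.7, 81.4 and 83.0% in pituitary, ovary and liver, and T1 replicate 2 measured 55.6, 47.6 and 47.6%. Its value was -63.1 ± 10.6 points (edgeR adjusted p = 1.37e-05).

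At ssa09:70547001-70548000, downstream of slc26a2, a sulfate transporter gene, all T4 libraries were at or below 14.7% and all T1 libraries at or above 43.5%. The value was -62.0 ± 5.38 points (edgeR adjusted p = 1.43e-06). At ssa09:139256001-139257000, downstream of LOC106613392, a B-cell CLL/lymphoma 9-like protein gene, the T4 levels were 11.2 and 10.8% in pituitary, 12.3 and 9.50% in ovary and 41.6 and 15.4% in liver. The T1 levels were 68.7 and 67.1% in pituitary, 78.4 and 83.8% in ovary and 84.0 and 80.5% in liver. The mammalian BCL9 proteins link beta-catenin to transcription in Wnt signalling. All 13 cytosines of this tile were lower at T4, and its value was -60.3 ± 4.52 points (edgeR adjusted p = 6.12e-09).

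At ssa12:49766001-49767000, which overlaps LOC106565344, a sodium- and chloride-dependent GABA transporter 2-like gene, the T4 fish did not move together. T4 replicate 1 measured 2.18, 2.45 and 1.49% in pituitary, ovary and liver, and T4 replicate 2 measured 65.9, 49.0 and 72.2%. The T1 libraries lay between 85.4 and 93.6%. Transporters of this family take up the inhibitory transmitter GABA. The value was -57.5 ± 17.7 points (edgeR adjusted p = 0.0107, limma on matched fish 0.405), with the widest SE of the 20 tiles.

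The other 4 lower tiles had no named gene and values of -60.9, -57.0, -56.7 and -56.2 points. They were ssa09:98262001-98263000, ssa07:30927001-30928000, ssa11:87735001-87736000 and ssa27:13924001-13925000. Of the 20 tiles named by value, limma called 14, limma on title codes 10 and limma on matched fish 6. The 6 were ssa15:43647001-43648000, ssa17:48236001-48237000, ssa05:70613001-70614000, ssa09:70547001-70548000, ssa09:139256001-139257000 and ssa07:30927001-30928000.

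Called tiles seldom adjoined. Of the 2399 tiles, 183 lay in 89 runs of neighbouring tiles, and the longest runs had 3 tiles. Of the 89 runs, 86 had a single direction. Among the cytosines of called tiles, 85.01% lay on the side of their tile, against 65.3% in all tiles. In 1252 called tiles (52.2%) every cytosine did, against 14.6% of all tiles. In 191 called tiles at most 50% of the cytosines did. A tile's difference is pooled from the same cytosines, so calls favour tiles whose cytosines share a side.

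There were 5 runs of 3 tiles, 4 of them higher and 1 lower at T4. The one with the largest mean value covers ssa14:56757001-56760000 and overlaps LOC106570035, a transcription factor AP-2-epsilon-like gene. AP-2 proteins are DNA-binding factors of neural crest, skin and other lineages in vertebrate development. The first tile of the run measured 33.7 and 22.0% in T4 pituitary, 68.2 and 43.6% in T4 ovary and 63.1 and 63.6% in T4 liver, against 1.72 and 1.6%, 3.00 and 4.08%, and 9.86 and 8.40% at T1. The second measured 50.7 and 40.0%, 46.7 and 54.9%, and 55.4 and 60.9% in the same tissues at T4, against 1.39 and 1.52%, 1.47 and 3.12%, and 7.69 and 1.96% at T1. In both tiles the least methylated T4 library lay well above the most methylated T1 library.

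The third tile of that run was more modest, with between 12.2 and 25.9% at T4 and between 2 and 10% at T1. The values of the 3 tiles were 44.3 ± 4.56, 48.6 ± 2.63 and 14.5 ± 2.79 points (edgeR adjusted p = 9.85e-08, 7.4e-08 and 0.0117). With 1 value per matched fish the first 2 kept their call and the third lost it (limma adjusted p = 0.00528, 0.00179 and 0.129). A further tile of the same gene, ssa14:56761001-56762000 with 12 cytosines, was also called, with a value of 14.7 points (edgeR adjusted p = 9.5e-07, limma on matched fish 0.0091). It is named after its values were seen. These 4 tiles called by edgeR were all higher at T4, and 3 of them were also called on matched fish. The gene was picked for its run, and its tested tiles were not counted. No share of its tiles can therefore be set beside the 0.485% of all tiles that edgeR called.

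The second run, ssa05:70658001-70661000, lies upstream of LOC106605837, a transient receptor potential cation channel subfamily V member 6-like gene, known as an epithelial calcium channel in mammals. Its 3 tiles had values of 24.4 ± 7.13, 38.6 ± 10.1 and 23.0 ± 5.54 points (edgeR adjusted p = 0.00727, 0.00126 and 0.00248). The T4 and T1 libraries overlapped in each of the 3, and each lost its call under limma (adjusted p = 0.198, 0.112 and 0.051), on title codes (0.196, 0.0861 and 0.122) and on matched fish (0.344, 0.317 and 0.267). The third run, ssa09:109531001-109534000, had values of 16.4 ± 3.34, 33.3 ± 5.38 and 30.0 ± 4.12 points (edgeR adjusted p = 0.00876, 1.72e-05 and 0.000203), and its last tile lies upstream of spg20, the gene of spartin. In the middle tile of that run all 16 cytosines were higher at T4. All 3 tiles were separated between T4 and T1, but none was called on matched fish (limma adjusted p = 0.29, 0.0811 and 0.0689).

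The fourth run lies on an unplaced scaffold, AGKD04016614.1, at positions 10001 to 13000, with values of 22.2 ± 2.18, 28.0 ± 3.57 and 21.7 ± 5.92 points (edgeR adjusted p = 9.01e-06, 9.36e-06 and 0.00793). The run lower at T4, ssa09:56717001-56720000, overlaps LOC106611587, a leucine-rich repeat and immunoglobulin-like domain-containing nogo receptor-interacting protein 2 gene. Its tiles had values of -17.6 ± 4.44, -26.04 ± 6.17 and -24.6 ± 7.64 points (edgeR adjusted p = 0.0335, 0.00231 and 0.00684), and the T4 and T1 libraries overlapped in each. The tissue by time point interaction in edgeR, measured on log odds, was not called in these tiles. The ovary differences were the smallest in size. In the 3 tiles they were 7.32, -8.22 and 5.25 points, against -30.7, -35.97 and -42.5 points in pituitary and -29.5, -33.9 and -36.4 points in liver. No tile of these 2 runs was called on matched fish (limma adjusted p between 0.0671 and 0.52).

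Over the 29 chromosome sequences the share of tiles called ran from 0.204 to 1.10%, with a median of 0.449%. ssa12 had the highest share, with 207 called tiles, and ssa09 the highest number, with 247 (0.866%). In windows of 5 Mb with at least 500 tiles (438 windows), the median share was 0.394% and the 95th percentile 1.31%. The highest was ssa09 between 110 and 115 Mb, where 32 of 1007 tiles (3.18%) were called, 20 of them higher at T4. The highest-ranking windows included 4 on ssa12. The windows were ranked after the calls and carry no test.

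With 1 value per matched fish, 117 tiles were called. Fish of a time point could still differ widely in them, as liver T4 replicate 1 did at ssa17:48236001-48237000. Of the 117, 58 (0.0117%) were higher and 59 (0.0119%) lower at T4, and 115 were also called by title codes. Their median absolute value was 32.4 points, and in 85 of them (72.6%) every cytosine lay on the side of its tile. Calling tiles by their difference favours both. ssa12 held 19 among its 18899 tested tiles, ssa14 held 15 among 20015 and ssa09 held 12 among 28509. In 45 tiles the lower time point averaged under 15%, and in 33 of these the other time point averaged between 20 and 60%. In 63 tiles the higher time point averaged over 75%, and in 40 of these the other averaged between 40 and 70%. No counts at these limits were made over all tiles, so they describe the 117 tiles only.

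**Figure D5:**
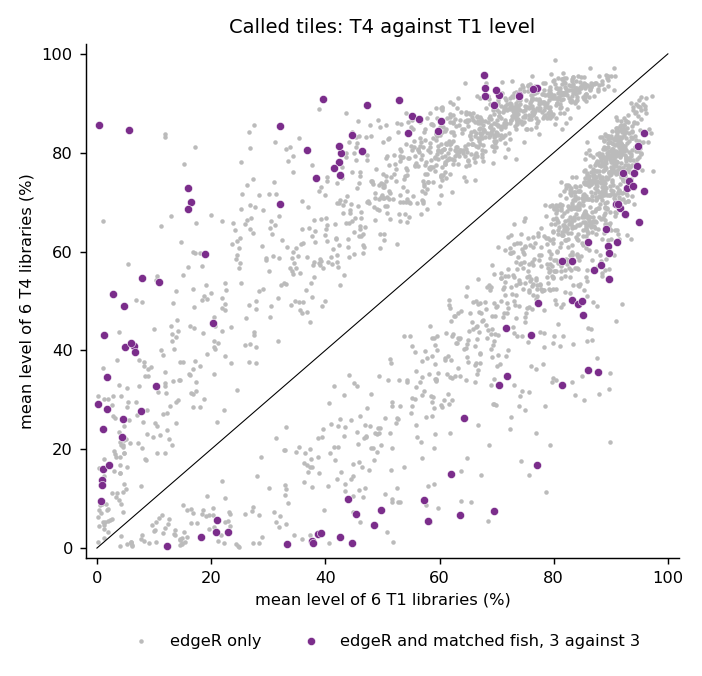
Mean level of the 6 T4 libraries against that of the 6 T1 libraries, in percent, for the 2399 tiles called by edgeR. Purple points are the 117 tiles also called by limma on 1 value per matched fish (58 above the diagonal, 59 below), and the line marks equal levels.

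The tiles of this group described next were chosen after their values were seen, as those with the smallest p in the fish test or with a named gene. At ssa19:25611001-25612000, with 3 cytosines, the T4 libraries measured 0.909 and 3.16% in pituitary, 0 (up to 3.57% at 84 reads) and 1.11% in ovary and 1.37 and 0% (up to 3.12% at 96 reads) in liver. The T1 libraries measured 42.2 and 52.9% in pituitary, 39.2 and 44.6% in ovary and 48.6 and 41.0% in liver. Each T1 library was thus near the middle of the scale and each T4 library near its lower end. The value was -43.7 ± 2.42 points (edgeR adjusted p = 1.75e-08).

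At ssa05:30324001-30325000 all 16 cytosines were lower at T4, and the tile had the smallest p of all tiles in edgeR (adjusted p = 4.9e-11). It measured 2.07 and 1.79% in T4 pituitary, 4.04 and 2.33% in T4 ovary and 1.604 and 1.13% in T4 liver. At T1 it measured 48.7 and 43.2% in pituitary, 38.7 and 27.8% in ovary and 54.3 and 43.1% in liver. The value was -40.5 ± 2.78 points.

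At ssa17:46570001-46571000, upstream of LOC106576355, a lysine-specific demethylase 7B-like gene for an enzyme that removes methyl groups from histones, the T4 levels lay between 25.2 and 37.2%. At T1 ovary replicate 2 measured 1.15% and the other 5 libraries had no methylated read, which allows up to between 2.59 and 4.11%. The value was 29.0 ± 1.80 points (edgeR adjusted p = 1.54e-07). The tile before it, ssa17:46569001-46570000, was also called in the fish test, with a value of 8.78 points.

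At ssa20:45603001-45604000, in ltbp4, the gene of a matrix protein that holds latent TGF-beta, no T4 library was above 2.60% and no T1 library below 29.8%. The value was -36.8 ± 3.09 points (edgeR adjusted p = 2.75e-07). At ssa14:8882001-8883000, in LOC106568722, a phosphodiesterase 4B-like gene of the cAMP-specific kind, the levels were 46.2 and 52.0% in T4 pituitary, 49.6 and 55.6% in T4 ovary and 59.5 and 63.6% in T4 liver. At T1 they were 87.6 and 90.6%, 84.4 and 88.5%, and 94.8 and 92.3% in the same tissues. Enzymes of this family break down cAMP, the second messenger of the gonadotropin receptors. The value was -35.3 ± 1.81 points (edgeR adjusted p = 2e-07).

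Other tiles of the 117 with a named gene included those at LOC106609088, a bromodomain-containing protein 1-like gene (ssa07:30936001-30937000, -38.5 points), irf5, an interferon regulatory factor gene (ssa17:34778001-34779000, 35.7 points), and LOC106566323, a CXXC-type zinc finger protein 1-like gene with 2 adjoining tiles (ssa13:2058001-2060000, 24.6 and 26.1 points). CXXC-type zinc fingers bind unmethylated CpG. LOC106584760, a tryptophan 5-hydroxylase 1-like gene for the enzyme that starts serotonin synthesis, had a tile at -43.8 points (ssa23:45325001-45326000). Names cover 43 of the 117 tiles, and no list of genes was tested.

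Within called tiles the 3 tissue differences were a median of 10.3 points from smallest to largest, and in 152 of the 2399 they were over 30 points apart. The tile with the sixth smallest p in edgeR, ssa17:49153001-49154000, was one of these and is named after its values were seen. It overlaps LOC106576452, a poly [ADP-ribose] polymerase 12-like gene. It measured 0.699 and 0.955% in T4 pituitary, 0.656 and 0% (up to 1.28% at 234 reads) in T4 ovary and 1.82 and 0.778% in T4 liver, against 81.9 and 71.5%, 19.8 and 14.9%, and 8.03 and 3.43% at T1. The difference was -75.9 points in pituitary, -17.02 points in ovary and -4.43 points in liver. T4 was thus near 0 in every tissue, and the tissues differed at T1. The tile was called in the joint test on matched fish (limma adjusted p = 0.0289), and its interaction was not past the threshold (edgeR adjusted p = 0.348, unadjusted p = 2.18e-05).

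That interaction is measured on log odds, so equal differences in points can be unequal on its scale and the reverse. The tissue by time point interaction in edgeR gave 1 tile with an adjusted p under 0.05 (0.000202% of tiles). Of the 495114 tiles tested, 26495 had an unadjusted p under 0.05, where chance alone puts a share of about 0.05. The called tile lies on an unplaced scaffold, AGKD04016877.1, at positions 6001 to 7000, with 29 cytosines between 6001 and 6302. It measured 79.3 and 78.1% in T4 pituitary, 80.3 and 86.2% in T4 ovary and 33.0 and 38.7% in T4 liver, against 77.3 and 84.2%, 80.7 and 74.6%, and 82.0 and 85.9% at T1. The difference was -48.1 points in liver, against -2.03 points in pituitary and 5.57 points in ovary (edgeR interaction adjusted p = 8.56e-05). The T4 liver libraries also had the most reads there, 2974 and 3230, against 1781 and 1646 in T1 liver and between 925 and 1739 in the other tissues, and the part of this in the result was not tested.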

How the data were processed

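Methylation at CpG sites was assayed by bisulfite sequencing of whole genomes. The authors trimmed reads with Trim Galore 0.5, aligned them to the bisulfite-converted ICSASG_v2 assembly with BS-Seeker2 2.1.8 and Bowtie2, removed duplicates with Picard and called methylation with BS-Seeker2. Each deposited file gives a count of reads and a count of methylated reads per cytosine, not normalised, for cytosines with at least 10 reads. A cytosine covered thinly in any of the 12 libraries is therefore missing here, and cytosines of the 2 strands were kept apart.

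Groups and replicate numbers came from the sample descriptions. Fish codes came from the titles, and the file names give the 2 ovary T1 libraries each other's code. Both counts were added up within 1 kb tiles holding 3 or more common cytosines. Of 3563979 common cytosines, 3073395 (86.2%) lay in such tiles. The main test was the quasi-likelihood F test of edgeR 4.0.16 (R 4.3.3). Its model had library effects, 6 group terms on methylation and a common dispersion from 20000 tiles. The contrast was the mean of the 3 T4 minus T1 contrasts. This test and the SE of each value take the 12 libraries as independent, although fish are shared. DSS, which the study used within tissues, was not installed. Alternatives used limma 3.58.1 on log2((methylated + 1)/(unmethylated + 1)), on libraries, with fish as a block, and on tissue-centred means per fish. These means were weighted by the number of libraries of the fish, so a fish with only 1 library counted least. Adjustment was by Benjamini-Hochberg over all tiles with a threshold of 0.05. The fits were also run on simulated tiles in which all libraries were drawn as independent. That simulation had no fish shared between tissues, so it cannot show how the fits behave with shared fish.

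Named tiles were the 10 largest positive and 10 largest negative values among called, separated tiles with coverage at most 3 times the median, plus the 3 longest runs. As 5 runs tied at 3 tiles, those with the largest mean absolute values were taken, and the other 2 were added after the data were seen. The members and lists were chosen with earlier results of these data known. RefSeq gene positions for another assembly were not used, and 1553 of the 2063 gene names were found in that RefSeq table. No genome of ICSASG_v2 was used, so no sequence is shown.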

Additional observations from a re-analysis of the deposited data

Results flagged for a closer look

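In the 20 tiles named by value, the 6 libraries of each time point were searched for a single library far from the others, in 40 groups of 6. Chance marks about 1 group in 20 among independent libraries, but the groups here mix 3 tissues and share fish. The tiles were also chosen by their values, so the count below cannot be measured against that rate. There were 10 such cases, of which 6 were liver T4 replicate 1, 3 were ovary T1 replicate 2 and 1 was liver T1 replicate 1. The first 2 are the libraries that matched no other library of their time point. The search was for a single library, so it favours a fish that has only 1 library.

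Liver T4 replicate 1 was the lowest T4 library at 57.0% on ssa02:14592001-14593000 (next 82.3%), at 54.5% on ssa09:114545001-114546000 (next 88.1%) and at 56.7% on ssa15:43647001-43648000 (next 86.5%). It was also lowest at 54.1% on ssa17:7078001-7079000 (next 86.0%) and at 47.0% on ssa17:48236001-48237000 (next 90.1%). On ssa09:139256001-139257000 it was the highest T4 library at 41.6% (next 15.4%). Ovary T1 replicate 2 was the highest T1 library at 62.4% on ssa12:76503001-76504000 (next 4.08%), at 47.7% on ssa17:7078001-7079000 (next 8.89%) and at 49.6% on ssa22:38120001-38121000 (next 11.1%). On ssa15:43647001-43648000 liver T1 replicate 1 was at 2.5% (2 of 80 reads) and the other T1 libraries had no methylated read. Their read numbers, taken as independent, allow levels of up to between 3.06 and 4.84%, so this library is not set apart from them.

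The interaction of tissue and time point, measured on log odds, was called at 1 tile, the tile with 29 cytosines on scaffold AGKD04016877.1 (edgeR interaction adjusted p = 8.56e-05), where both T4 liver libraries lay below the other 10 libraries.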

How the results depend on the processing

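The mean difference over all tiles was near 0 and changed sign readily, at 0.0186 points with at least 5 cytosines per tile, 0.0320 with at least 20 reads per cytosine and 0.168 over every cytosine of each file. It was 0.0613, 0.0289 and 0.129 points without title codes T1F1, T1F4 and T4F3, and between -0.138 and 0.130 points without single libraries. By class, single libraries left out gave between -0.0313 and 0.617 points for tiles of 20 to 80%, -0.145 and 0.123 for 3 to 9 cytosines, -0.101 and 0.176 for 10 to 19, and -0.0766 and 0.116 for 20 or more. Without a title code, tiles of 3 to 9 cytosines gave 0.0532 (T1F1), 0.0235 (T1F4) and 0.119 points (T4F3). Tiles of 10 to 19 gave -0.0670 (T1F3), -0.0348 (T4F2) and -0.0486 (T4F4), and tiles of 20 or more gave -0.0628, -0.0276 and -0.0812 for the same codes. None of these passed the threshold.

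The count of called tiles (2399) was 1406 with at least 5 cytosines and 582 with at least 20 reads, which leave 286136 and 98596 tiles to test. limma gave 517, and 520, 470 and 430 with title codes, file name codes and matched fish as a block. It gave 368 on title codes and 117 on matched fish (the last block and the last count were added after the data were seen). In edgeR the count was 1039 without title code T4F4, 1628 without T1F3 and 2774 without T1F4. It was between 1403 and 2376 without single libraries. Separated tiles (2145) numbered 1357 at 5 kb, 1241 with at least 5 cytosines and 465 with at least 20 reads. Runs (89) numbered 16 under limma. The cause of these shifts beyond fewer tiles or libraries was not tested.

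With the replicate number as a term (replicate block) edgeR called 3497 tiles. Replicate numbers did not pair T4 with T1 libraries, since the replicate differences of T4 and T1 correlated at 0.00890, -0.0401 and -0.00900 in pituitary, ovary and liver. None of the 29 named tiles changed direction in a setting that kept it (17 had at least 5 cytosines and 4 were left at 20 reads per cytosine). The 20 tiles named by value were chosen as separated, so leaving out libraries could not reverse them. Of the 29 tiles, 21 lost the call on matched fish, 16 on title codes and 10 under limma.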
